A study of Drosophila melanogaster with 10 samples.

Results

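The 9 genes described here, Slbp, mxc, mute, Lsm10, Lsm11, Cpsf73, Cpsf100, Sym and Snp, encode parts of the histone locus body and of the machinery that forms the ends of histone mRNAs. They were chosen by name from known function. Both they and the lists of related genes below were chosen with earlier results of these data known. Each of the 9 was found by symbol among the 16727 genes of the count table. All 9 also passed the filter on low counts, which left 11146 genes to test. Expression was measured by RNA sequencing of polyA RNA from brains of Drosophila melanogaster larvae in the last larval instar. The yw genotype, a stock named for mutations in yellow and white, is labelled with 200 wild-type histone gene repeats, and the 12xWT genotype with 12. The 10 libraries, each a pool of 25 brains sexed by label, comprise 4 of yw (2 per sex) and 6 of 12xWT (3 per sex). The labels give no allele, transgene or chromosome for the repeats of 12xWT, no further allele in either genotype, and no age beyond wandering larvae. Repeat number therefore cannot be told apart from any other difference between the stocks.

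Replication-dependent histone genes of the fly lie in a tandem array, and a nuclear condensate called the histone locus body forms over it. Histone mRNAs are not polyadenylated. Their ends are made by a cut between a stem loop, bound by the stem-loop binding protein, and a downstream element recognised by the U7 small nuclear RNA, whose protein ring brings in the endonuclease. In the larval brain, dividing neuroblasts and their daughter cells need new histones in each S phase.

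The Lsm pair that is particular to the U7 particle moved in opposite directions between the genotypes, while the scaffold, the stem-loop binding protein and most of the cleavage module lay close to the same level. Lsm11 was 1.42-fold higher in 12xWT and Lsm10 fell to 0.702 of its yw level. Cpsf73 fell by 5.4%. At a Benjamini-Hochberg adjusted p of 0.05, the quasi-likelihood test of edgeR, adjusted for sex, called 3 of the 9 genes, 1 higher and 2 lower. The same test called 33.4% of all genes tested, 17% higher and 16.4% lower, so that 3 of 9 is near the background. The median log2 fold change of the 9 genes was -0.0216, against 0.00047 over all genes tested. Their median absolute log2 fold change was 0.0445, against 0.121 over all genes. The 9 genes and all genes were not matched for level or for spread between libraries.

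Before the values, 3 properties of the libraries bear on them. Gene counts totalled 52.02 to 79.92 M in a library. The white gene separated the genotypes, at 0.089 to 0.175 counts per 1 M (CPM) in yw and 224 to 299 CPM in 12xWT. The 12xWT female libraries held male-limited transcripts. The noncoding RNA roX2 was at 7.34 to 15.1 CPM there, at 0.0769 to 2.88 CPM in yw females and at 35.7 to 48 CPM in 12xWT males. In yw males roX2 was higher still, at 65.3 to 67.8 CPM. In roX1 and msl-2, also higher in males, 12xWT males lay below yw males too. These were at 1949 to 2535 against 2953 to 3139 CPM and at 120 to 139 against 152 to 157 CPM. Sxl, higher in females, overlapped between 12xWT males (263 to 355 CPM) and yw males (286 to 331 CPM). Genes of the Y chromosome summed to 4.39 to 17.9 CPM in 12xWT females and 19.8 to 22.8 CPM in 12xWT males, but also differed by genotype, with only 0.105 to 0.26 CPM in yw males. Whether male brains were among the 12xWT female pools, or female brains among the 12xWT male pools, was not tested. The sex label of the 12xWT female libraries is therefore in doubt, and that of the 12xWT male libraries is not settled. Each value by sex that uses either group shares that doubt. Here 12xWT female means the libraries so labelled, and counts of called genes in the lists are given both ways where they change without them. Markers of neurons, glia and neuroblasts were all detected, as the brain label requires, but so were markers of tissues that adhere to it. The summed level of 8 ring gland markers was 79.5 to 222 CPM in yw and 225 to 498 CPM in 12xWT, and 6 of the 8 were called higher. Of 8 haemocyte markers 3 were called higher (37.5%) and 0 lower, where 33.4% of all genes were called and 17% were called higher. Their median log2 fold change was 1.74. Without the robust step edgeR called 5 of these 8 higher, and DESeq2 called 6. Among markers of other tissues, 0 of 7 fat body and 0 of 8 salivary gland genes were called between the genotypes. Of 8 muscle genes 1 was called higher, and of 7 eye disc genes 3 were called lower. Of the brain's own markers, 7 of 12 neuron genes were called lower and 1 higher, 5 of 8 neuroblast genes lower and 1 higher, and 5 of 8 glial genes lower. The shares called were 66.7%, 75% and 62.5%, and 75% for the ring gland. Without the 12xWT female libraries the calls were 0 ring gland and 2 haemocyte genes higher, and 7 neuron, 1 neuroblast and 4 glial genes lower with 0 higher. Of muscle and eye disc genes 0 were then called. The median log2 fold changes in that fit were 1.12 for ring gland (1.1 with all 10 libraries) and 1.08 for haemocyte genes (1.74). They were -0.273 for neuron (-0.173), -0.173 for neuroblast (-0.152) and -0.254 for glial genes (-0.182). The counts also moved when single libraries were left out, to 2 to 8 ring gland and 3 to 6 haemocyte genes higher and 3 to 7 neuron and 3 to 5 neuroblast genes lower. Muscle genes called higher then numbered 0 to 2, salivary gland genes called higher 0 to 1, and eye disc genes called lower 0 to 4. The fewest ring gland calls came without yw female replicate 1 or 2, the most ring gland and haemocyte calls without yw male replicate 1, and the fewest neuron calls without yw male replicate 2. No marker in these lists was at 0 in all libraries. Between the sexes, 2 of the 8 salivary gland genes (25%) were called, both higher in males, against 1.68% of all genes. They were Sgs3 (log2 difference 2.24, edgeR, adjusted p = 0.025) and Sgs5 (2.56, adjusted p = 0.0371). Their counts per library were low, 25 to 399 for Sgs3 and 4 to 170 for Sgs5. The part of these markers in the results on the 9 genes was not tested, and in whole brains fewer cells of a type and less RNA per cell cannot be told apart.

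Neither scaffold gene was called between the genotypes. Mxc, the fly counterpart of human NPAT, is the scaffold protein on which the histone locus body assembles. The mxc gene (FBgn0260789) lies on chromosome X, 9236801 to 9243467, minus strand (dm6). In yw its CPM was 133 and 122 for females and 146 and 148 for males. In 12xWT it was 131, 140 and 133 for females and 148, 146 and 131 for males. The genotypes overlapped fully, with the lowest value in a yw female library and the highest in males of each genotype. Means were 137 ± 12.1 CPM (SD, n = 4) in yw and 138 ± 7.6 CPM (SD, n = 6) in 12xWT, and the log2 fold change was -0.00805 (95% confidence interval -0.11 to 0.0899; edgeR, Benjamini-Hochberg adjusted p = 0.909).

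Mute, named for a muscle wasting mutant, is a further protein of the histone locus body. The mute gene (FBgn0085444) lies on chromosome 2R, 16948296 to 16955266, minus strand. The CPM of mute was 95.5 and 96.3 for yw females and 102 and 98.7 for yw males. For 12xWT females it was 96, 99.6 and 92.2, and for 12xWT males 97.5, 99.5 and 95.6. The ranges overlapped, and all 10 libraries lay between 92.2 and 102 CPM. On the log2 scale 12xWT differed by -0.0445 (95% confidence interval -0.10 to 0.0118; edgeR, Benjamini-Hochberg adjusted p = 0.206). The ratio of mxc to mute in reads per kb of exon per 1 M counts (RPKM) was 1.3 ± 0.0892 in yw, ranging from 1.18 to 1.4, and ranged from 1.28 to 1.42 in 12xWT.

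Slbp encodes the stem-loop binding protein, which stays with histone mRNA from its cleavage through export and translation. The gene (FBgn0041186) lies on chromosome 3R, 29152074 to 29153266, minus strand, with no exon shared. Its CPM was 26.2 and 25.3 for yw females and 26.6 and 28.4 for yw males. For 12xWT it was 28, 28.4 and 24.8 among females and 26.5, 24.7 and 26.6 among males. The ranges were nearly the same, 25.3 to 28.4 CPM in yw and 24.7 to 28.4 CPM in 12xWT. Slbp had a log2 fold change of -0.0291 (95% confidence interval -0.13 to 0.0725; edgeR, Benjamini-Hochberg adjusted p = 0.663). By sex the estimates had opposite signs, 0.0472 in females and -0.10 in males on the log2 scale. The difference between these effects was -0.15 (95% confidence interval -0.34 to 0.0373; edgeR, unadjusted p = 0.105, Benjamini-Hochberg adjusted p = 1).

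Lsm10 and Lsm11 take the places of SmD1 and SmD2 in the ring of proteins around the U7 RNA, which makes that ring distinct from those of the splicing RNAs. Lsm11 also contacts FLASH, and together they recruit the cleavage module. Both are encoded by genes with a single exon on chromosome 2R, and both were expressed far below the other 7 genes.

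Lsm11 (FBgn0033450, chromosome 2R, 9838434 to 9839500, minus strand) was higher in 12xWT. Counts were 133 and 155 in yw females, 175 and 172 in yw males, 232, 215 and 232 in 12xWT females and 271, 229 and 253 in 12xWT males. As CPM these were 2.56 and 2.76 for yw females, 3.06 and 2.8 for yw males, 4.08, 3.75 and 4.14 for 12xWT females and 3.39, 4.36 and 4.42 for 12xWT males. Every 12xWT library lay above every yw library, the closest being a yw male at 3.06 CPM and a 12xWT male at 3.39 CPM. Of all genes tested, 24% had CPM ranges that did not overlap between the genotypes; of the 9 genes, 2 had. Means were 2.79 ± 0.206 CPM (SD, n = 4) in yw and 4.02 ± 0.391 CPM (SD, n = 6) in 12xWT. This was a rise of 0.50 on the log2 scale (SE 0.0954, 95% confidence interval 0.30 to 0.71; edgeR, Benjamini-Hochberg adjusted p = 0.00200). Leaving out each library in turn gave 0.47 to 0.56, called each time. Without the 12xWT female libraries the log2 fold change was 0.45 and the call was lost (edgeR, Benjamini-Hochberg adjusted p = 0.07).

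Lsm10 (FBgn0033554, chromosome 2R, 10821098 to 10821640, minus strand) was lower in 12xWT. It had the fewest reads of the 9 genes, 60 and 56 counts in yw females, 52 and 76 in yw males, 47, 46 and 37 in 12xWT females and 55, 44 and 45 in 12xWT males. In CPM these were 1.15 and 0.997 in yw females, 0.909 and 1.24 in yw males, 0.827, 0.802 and 0.66 in 12xWT females and 0.688, 0.838 and 0.787 in 12xWT males. The genotypes did not overlap, but the gap was narrow, from 0.838 CPM in the highest 12xWT library to 0.909 CPM in the lowest yw library. These counts have 95% exact Poisson intervals, for counting error only, that do overlap: 0.609 to 1.12 CPM for that 12xWT library and 0.679 to 1.19 CPM for that yw library. Means were 1.07 ± 0.148 CPM (SD, n = 4) in yw and 0.767 ± 0.0749 CPM (SD, n = 6) in 12xWT. Its log2 fold change was -0.51 (SE 0.147, 95% confidence interval -0.83 to -0.19; edgeR, Benjamini-Hochberg adjusted p = 0.0199). The call was lost without yw female replicate 1 (log2 fold change -0.47, adjusted p = 0.0579), without yw male replicate 2 (-0.42, adjusted p = 0.0849) and without the 12xWT female libraries (-0.50, adjusted p = 0.165), all by edgeR.

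**Figure D1:**
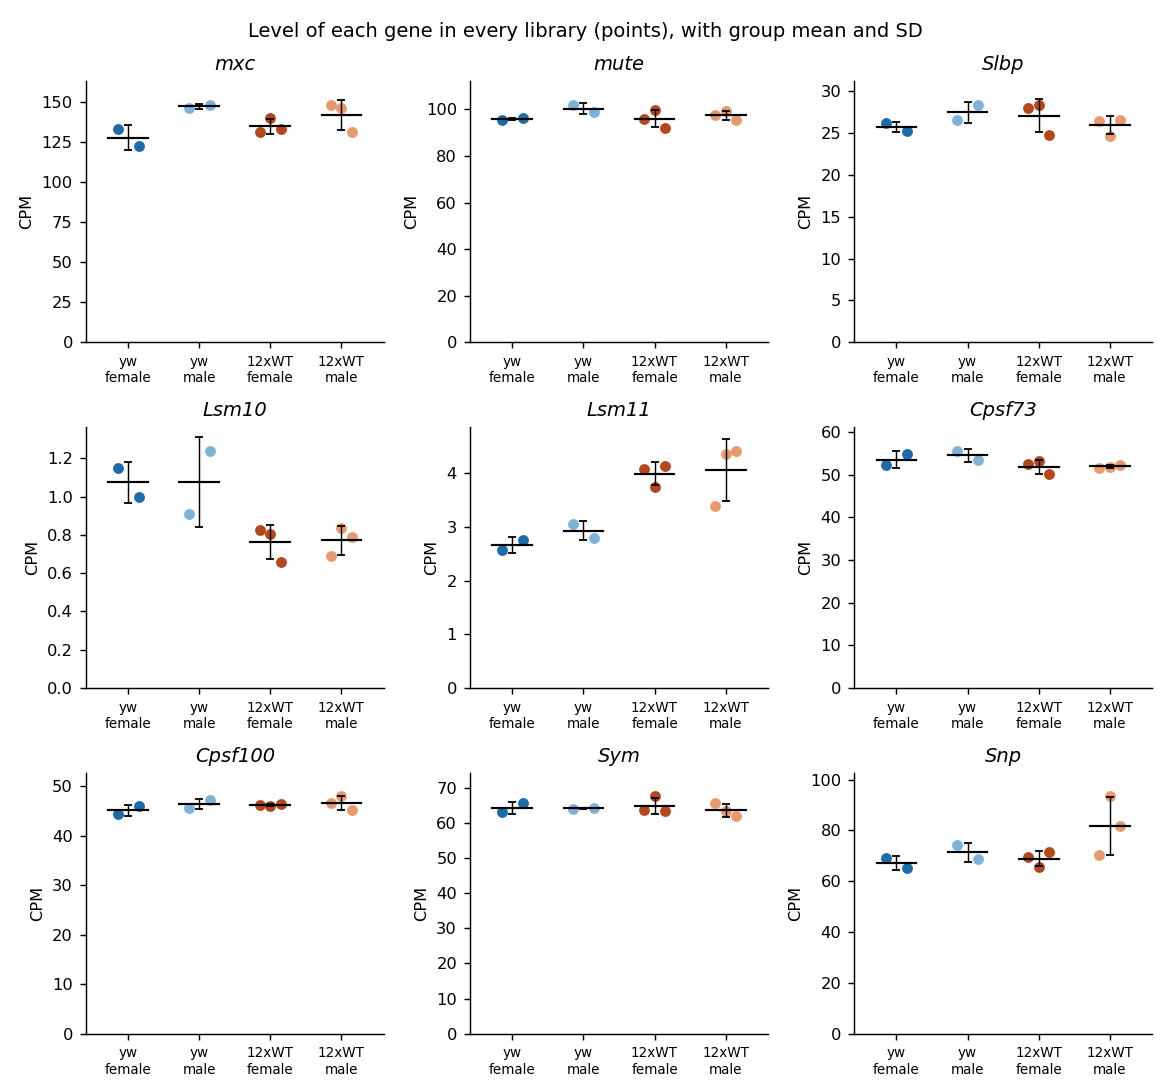
Level of each of the 9 genes in CPM, with 1 point per library, a horizontal bar for the mean and an error bar for the SD of each group of genotype and sex; every axis starts at 0. Lsm11 lies higher in all 6 libraries of 12xWT than in the 4 of yw, Lsm10 lies lower, and the other genes overlap.

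The counting did not use strand, and per the file headers no option to count reads that fall on several genes was given. Reads on exonic bases shared by genes may therefore be missing from the counts, while RPKM divides by the full exon length. Of the exonic bases of Lsm10, 81 of 543 (14.9%) are shared with Prosbeta5, a proteasome subunit gene on the opposite strand. Per length, Prosbeta5 was at 154 ± 1.85 RPKM in yw and 159 ± 7.36 RPKM in 12xWT, where Lsm10 was at 1.98 ± 0.272 and 1.41 ± 0.138 RPKM, and its log2 fold change was 0.0194 (edgeR, Benjamini-Hochberg adjusted p = 0.661). Lsm11 shares 48 bases (4.5%) with CG1663 on the opposite strand, at 9.55 ± 0.382 CPM in yw and 9.52 ± 0.609 CPM in 12xWT. CG1663 had a log2 fold change of -0.0265 (edgeR, Benjamini-Hochberg adjusted p = 0.753). The neighbour of Lsm10 thus passed no test in either direction, nor did that of Lsm11. Within 100 kb of Lsm10, 23 of 36 genes tested (63.9%) were called between the genotypes, 9 higher and 14 lower. Around Lsm11 the share was 12 of 35 (34.3%), close to the 33.4% of all genes tested.

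The ratio of Lsm11 to Lsm10 in RPKM set the genotypes further apart than either gene did. It was 1.35 ± 0.273 (SD, n = 4) in yw, ranging from 1.13 to 1.71. In 12xWT it was 2.68 ± 0.298 (SD, n = 6), ranging from 2.38 to 3.19. The ranges did not overlap, and within each genotype females and males overlapped. The ratio was chosen after both genes' values were known, so no test is given for it. With 1 gene higher and the other lower, a wider separation was bound to follow and adds no evidence. Its denominator rests on 37 to 76 counts per library.

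**Figure D2:**
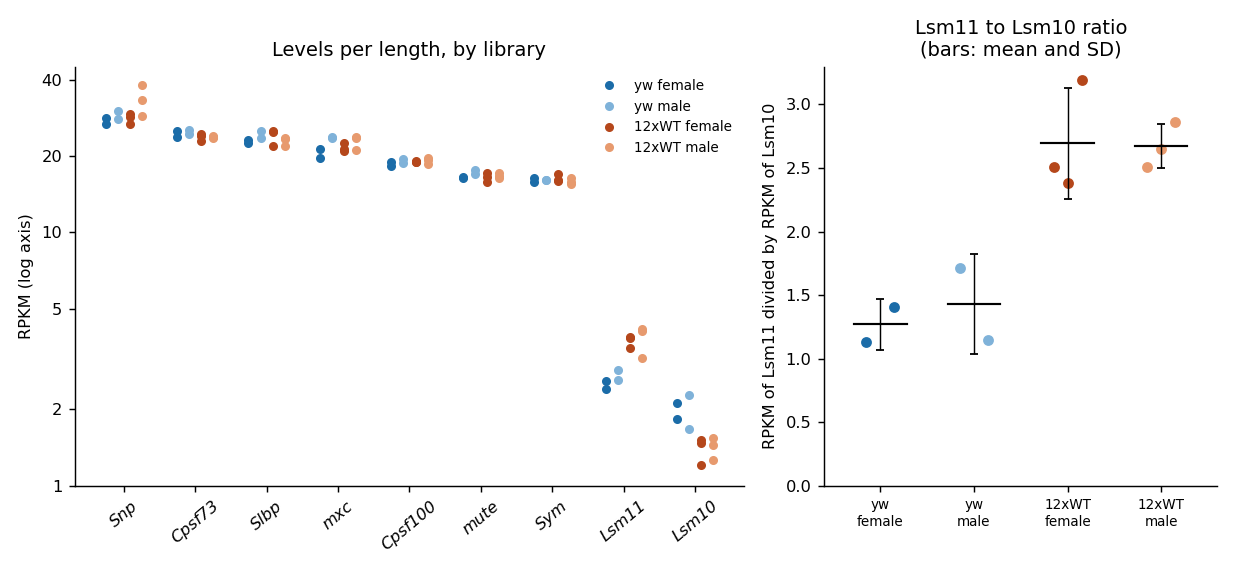
Left, RPKM of the 9 genes on a log axis, 1 point per library, ordered by mean level; right, the RPKM of Lsm11 divided by that of Lsm10 per library, with mean and SD per group. Lsm11 and Lsm10 lie far below the other 7 genes, and their ratio is 1.13 to 1.71 in yw and 2.38 to 3.19 in 12xWT.

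Cpsf73, Cpsf100 and Symplekin form the cleavage module that histone mRNAs share with polyadenylated mRNAs. Cpsf73 is the endonuclease, Cpsf100 its inactive partner and Symplekin, encoded by Sym, the scaffold that holds them. Of these, only Cpsf73 was called, and its change was small.

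Cpsf73 (FBgn0261065, chromosome 3R, 18661121 to 18663552, minus strand) had a CPM of 52.2 and 55 for yw females and 55.7 and 53.4 for yw males. For 12xWT females it was 52.5, 53.2 and 50.1, and for 12xWT males 51.7, 51.9 and 52.3. The genotypes overlapped, since yw female replicate 1 lay within the range of 12xWT. Means were 54.1 ± 1.58 CPM (SD, n = 4) and 52 ± 1.02 CPM (SD, n = 6). Its log2 fold change was -0.0798 (SE 0.0254, 95% confidence interval -0.14 to -0.0242; edgeR, Benjamini-Hochberg adjusted p = 0.0312). The call held in 4 of the 10 fits that left out a library. It was lost without yw female replicate 2, yw male replicates 1 and 2, 12xWT female replicate 3 or 12xWT male replicates 1 and 2, each left out singly, where edgeR's adjusted p was 0.0501 to 0.109. It was also lost without the 12xWT female libraries (log2 fold change -0.0881, adjusted p = 0.165) with scaling by library size only (-0.0577, adjusted p = 0.146) and with no filter on low counts (-0.0783, adjusted p = 0.0642). Cpsf73 had the smallest spread of the 9 genes, a within-group SD of 0.0295 on the log2 scale, at percentile 5.8 of all genes tested.

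Cpsf100 (FBgn0027873, chromosome 3R, 29034573 to 29037062, plus strand) had a CPM of 44.3 and 45.9 for yw females and 45.6 and 47.1 for yw males. For 12xWT it was 46.2, 46 and 46.3 among females and 46.6, 47.9 and 45.2 among males. The groups overlapped throughout, and the log2 fold change of -0.00101 was the smallest of the 9 (95% confidence interval -0.0624 to 0.0604; edgeR, Benjamini-Hochberg adjusted p = 0.982). Sym (FBgn0037371, chromosome 3R, 5738178 to 5742476, minus strand) had a CPM of 63 and 65.5 for yw females and 64 and 64.2 for yw males. For 12xWT it was 63.7, 67.5 and 63.2 among females and 65.5, 63.2 and 61.9 among males. Its ranges overlapped too, with a log2 fold change of -0.0216 (95% confidence interval -0.083 to 0.0399; edgeR, Benjamini-Hochberg adjusted p = 0.588). These intervals hold no difference in either gene beyond 0.083 on the log2 scale.

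In RPKM the parts of the module kept similar proportions. Cpsf73 to Cpsf100 was 1.31 ± 0.0423 in yw and 1.24 ± 0.0377 in 12xWT. Sym to Cpsf100 was 0.856 ± 0.0182 in yw and 0.844 ± 0.0305 in 12xWT. Both ratios overlapped between the genotypes. Cpsf73 shares 6 exonic bases with CstF-64 on the opposite strand, and Cpsf100 shares 5 with Slu7, so little of their counts can be affected.

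Snp encodes Snipper, an exoribonuclease of the Eri1 family that digests structured RNA and has been linked to histone mRNA abundance. The gene (FBgn0265192, chromosome 2R, 22060950 to 22069757, plus strand) shares 640 exonic bases (26.1%) with CG44249 on the same strand and with CG13501 and CG11475 on the other. Its counts are uncertain where they overlap, and reads there may be missing. Per length these neighbours were lower, the highest of them, CG44249, being at 3.24 ± 0.22 RPKM in yw and 2.93 ± 0.168 RPKM in 12xWT, where Snp was at 28.3 ± 1.46 and 30.7 ± 4.21 RPKM.

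The CPM of Snp was 69.3 and 65.4 for yw females, 74.1 and 68.7 for yw males and 69.6, 65.6 and 71.6 for 12xWT females. The 12xWT males were the most spread, at 70.4, 93.4 and 81.6. The genotypes overlapped, and the 2 highest libraries were both 12xWT males. Over both sexes the log2 fold change was 0.0917 (95% confidence interval -0.0801 to 0.26; edgeR, Benjamini-Hochberg adjusted p = 0.391). In males alone it was 0.17 (95% confidence interval -0.0696 to 0.42; edgeR, Benjamini-Hochberg adjusted p = 0.286). Of the alternatives run, that value passed the threshold only without 12xWT male replicate 1 (log2 fold change 0.27, adjusted p = 0.0307).

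Within each sex, Lsm11 was the gene called. In females the test called 12.6% of all genes and 1 of the 9, Lsm11, at 0.56 on the log2 scale (SE 0.14; edgeR, Benjamini-Hochberg adjusted p = 0.0233). In males it called 21% of all genes and again Lsm11 alone of the 9, at 0.45 (SE 0.138; edgeR, Benjamini-Hochberg adjusted p = 0.0416). These calls lay near the threshold. The female call was lost without yw female replicate 1 or 2 or 12xWT female replicate 1 or 3 (adjusted p = 0.0588 to 0.155). Of the 10 libraries, leaving out 12xWT male replicate 1 alone kept the male call, and without each of the others the adjusted p was 0.0504 to 0.245.

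Lsm10 had nearly the same estimate in both sexes, -0.52 in females (95% confidence interval -1.0 to -0.0322; adjusted p = 0.158) and -0.50 in males (95% confidence interval -0.98 to -0.0213; adjusted p = 0.129), by edgeR with Benjamini-Hochberg adjustment. Neither was called. Cpsf73 was at -0.07 in females and -0.0896 in males on the same scale, also not called. The test of the difference between the genotype effects of the sexes called 0 of the 9 genes and 0% of all genes by edgeR, with 456 genes (4.09%) at an unadjusted p under 0.05, while DESeq2 called 11. For Lsm11 that difference was -0.11 (95% confidence interval -0.54 to 0.32), and for Lsm10 it was 0.0162 (95% confidence interval -0.67 to 0.70). These intervals are wide enough to hold differences as large as the genotype effects themselves.

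**Figure D3:**
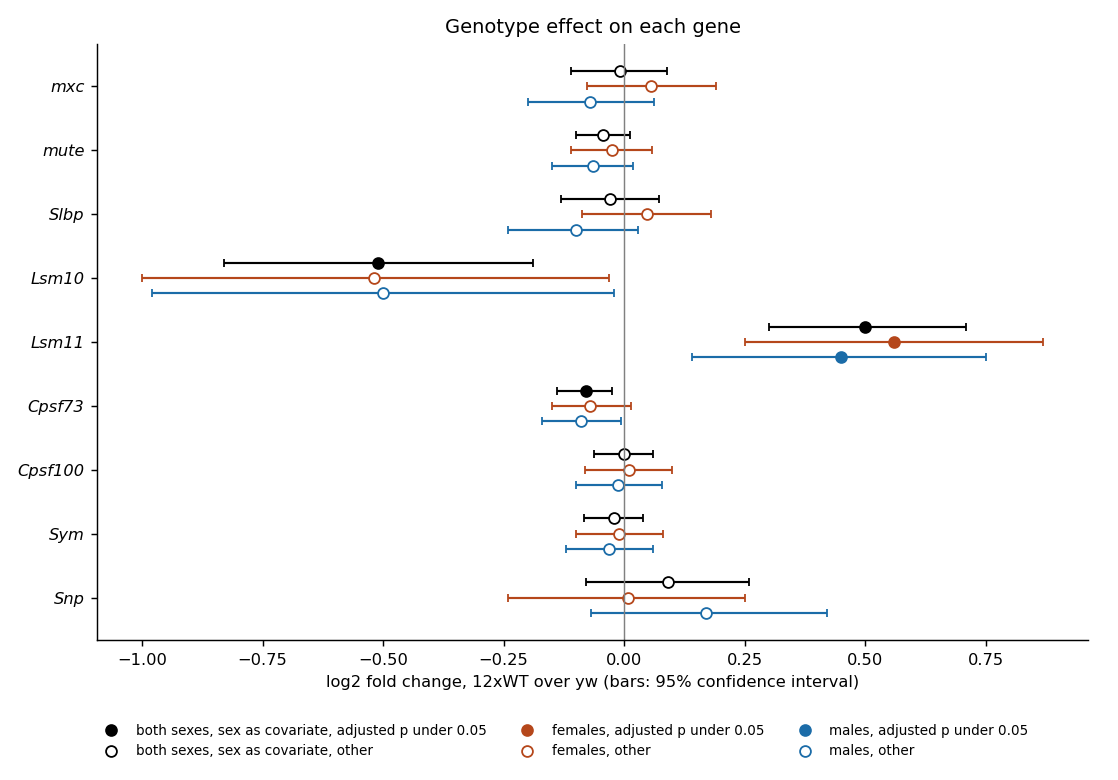
Log2 fold change of 12xWT over yw for each of the 9 genes, over both sexes with sex as a covariate (black), in females (orange) and in males (blue); bars are 95% confidence intervals and filled points have an adjusted p under 0.05 by edgeR. Lsm11 lies to the right of 0 in all 3 estimates and Lsm10 to the left, while the others lie within 0.18 of 0.

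Sex was the other axis of the design, with 5 female and 5 male libraries. With genotype as a covariate, edgeR called 0 of the 9 genes and 1.68% of all genes tested, while 1141 genes (10.2%) had an unadjusted p under 0.05. The CPM ranges of the sexes overlapped for all 9 genes, as they did for all but 2.43% of the genes tested. The largest estimates were those of Snp and mxc. Snp was at 68.3 ± 2.72 CPM in females and 77.6 ± 10.1 CPM in males (SD, n = 5 each), a log2 difference of 0.18 (95% confidence interval 0.012 to 0.35; edgeR, unadjusted p = 0.0383, Benjamini-Hochberg adjusted p = 0.425). The gene mxc, the only one of the 9 on the X chromosome, was at 132 ± 6.56 CPM in females and 144 ± 7.02 CPM in males. Its log2 difference was 0.13 (95% confidence interval 0.0293 to 0.22; edgeR, unadjusted p = 0.015, Benjamini-Hochberg adjusted p = 0.273). The fit without 12xWT male replicate 3 called it (0.16, adjusted p = 0.034).

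In yw, where female libraries held little of the male-limited transcripts, mxc differed by 0.20 on the log2 scale between males and females (95% confidence interval 0.0559 to 0.35; edgeR, unadjusted p = 0.0112, Benjamini-Hochberg adjusted p = 0.306). In 12xWT it differed by 0.0752 (95% confidence interval -0.0427 to 0.19; edgeR, Benjamini-Hochberg adjusted p = 0.908). Neither passed the test, nor did any other of the 9 genes; over all genes the shares called were 0.807% in yw and 0.0538% in 12xWT.

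Ordered by level per length over all 10 libraries, the genes fell into 2 ranges. The higher began with Snp at 29.8 ± 3.48 RPKM, followed by Cpsf73 at 24.1 ± 0.737, Slbp at 23.4 ± 1.22 and mxc at 22.1 ± 1.44 RPKM. Below these came Cpsf100 at 19 ± 0.416, mute at 16.7 ± 0.493 and Sym at 16.1 ± 0.402 RPKM. Then followed a gap: Lsm11 was at 3.31 ± 0.665 RPKM, 4.86-fold below Sym, and Lsm10 was at 1.64 ± 0.347 RPKM, 2.02-fold below Lsm11. Among neighbours in this order, Cpsf73 and Slbp, Slbp and mxc, mxc and Cpsf100, and mute and Sym had overlapping library ranges, and the other neighbours did not overlap. In 12xWT females Slbp and Cpsf73 changed places, at 23.9 ± 1.77 and 23.7 ± 0.719 RPKM (SD, n = 3 each), with overlapping ranges.

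The spread between replicate libraries differed among the genes. The within-group SD of the log2 level was 0.0295 to 0.0416 for Cpsf73, mute, Cpsf100 and Sym, below the median of 0.0862 over all genes tested. It was 0.0689 for Slbp and 0.0779 for mxc. Snp, Lsm11 and Lsm10 lay above that median, at 0.133, 0.139 and 0.182. For Lsm10 counting error alone gives an SD of 0.205, so that its spread was no larger than its read number sets, whereas for Snp counting error gives only 0.0225.

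The genes whose levels followed those of the scaffold genes and Slbp most closely over the 10 libraries were named by Pearson's r of log2 CPM, as a description. For Slbp they were CG31548 (r = 0.938), l(2)34Fd (0.907) and UK114 (0.905). For mxc they were CG42450 (0.913), noe (0.909) and Nf1 (0.896). For mute they were CG8617 (0.942), CG13148 (0.932) and CG12728 (0.914). None of the other 8 genes stood among the 3 closest to any of them. The points share library depth and genotype, and the closest of 11146 genes over 10 libraries will have a high r.

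Transcripts for the other proteins of the U7 ring were also lower in 12xWT, unlike that of Lsm11. In a list of 14 genes for the Sm ring and its assembly, 9 fell and 0 rose (64.3% called against 33.4% of all genes), with a median log2 fold change of -0.17 against 0.00047. All 7 Sm genes were among the 9: SmB, SmD3, SmE, SmF, SmG, SmD1 and SmD2. Of the ring's members shared with U7, SmB went from 96.8 ± 2.44 CPM in yw (n = 4) to 85.9 ± 2.23 CPM in 12xWT (n = 6), or -0.19 on the log2 scale (SE 0.0242; edgeR, Benjamini-Hochberg adjusted p = 0.000106). SmG had the largest fall of the ring, at -0.26 (SE 0.0364; adjusted p = 0.000222), and SmD3 the smallest, at -0.0808 (SE 0.0206; adjusted p = 0.0107). SmE fell by 0.16 and SmF by 0.17 on the log2 scale. SmD1 and SmD2, which the U7 ring lacks, fell by 0.17 and 0.21. The assembly factors Gem2 and Gem3, of the SMN complex, fell by 0.26 and 0.22, while Smn itself was at 0.0512 (adjusted p = 0.237). Without the 12xWT female libraries 8 of the 14 were called lower and 0 higher, the same counts as with scaling by library size only. The median log2 fold change without those libraries was -0.19. The U7 RNA gene, snRNA:U7, had 8 to 22 counts per library, in libraries made from polyA RNA.

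Genes of the histone locus body and of histone gene transcription changed in both directions, 3 higher and 5 lower of 15, with a median log2 fold change of -0.0744. That is 53.3% called, against 33.4% of all genes (17% higher and 16.4% lower). FLASH, the partner of Lsm11, was at 33 ± 0.598 CPM in yw and 32.2 ± 1.03 CPM in 12xWT, or -0.0592 on the log2 scale (SE 0.0343; edgeR, Benjamini-Hochberg adjusted p = 0.206). Clamp, a zinc finger protein that binds GA repeats of the histone array, fell by 0.22 (adjusted p = 0.000141). Abo, described as a repressor of histone genes, rose by 0.33 (adjusted p = 0.000338), and CycE, whose kinase acts on Mxc, rose by 0.15 (adjusted p = 0.0261). Jabba, which anchors histones to lipid droplets in the embryo, had the largest change, from 4.01 ± 0.805 to 11.7 ± 1.43 CPM, a log2 fold change of 1.53 (SE 0.116; adjusted p = 3.02e-06). Spt6, HERS, nej and Trf2 fell by 0.13, 0.16, 0.12 and 0.16. Several genes of this list share exonic bases with others, among them Jabba with Cyp12b2, Clamp with CG42748 and FLASH with CG34312, CG34235 and CG30058. Reads there may be missing from their counts. Without the 12xWT female libraries 2 of the 15 were called higher and 2 lower, with a median of -0.0646.

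Factors of cleavage and polyadenylation outside the histone cleavage module were mostly lower where called, 7 of 15 against 1 higher, with a median of -0.0663. In all 53.3% of them were called, against 33.4% of all genes. The fallers were CstF64, CstF50, Cpsf6, Pcf11, Pabp2, PNUTS and Ssu72, with log2 fold changes of -0.13 to -0.088. These sizes were like that of Cpsf73, whose exon end overlaps that of CstF64 (log2 fold change -0.12, edgeR, Benjamini-Hochberg adjusted p = 0.0337). The gene cbc, which encodes the Clp1 RNA kinase, rose by 0.24 (adjusted p = 0.000588). Without the 12xWT female libraries 1 was called lower and 1 higher, with a median of -0.0845. In the list of cap binding, termination, export and decay, 4 of 14 fell and 0 rose. That is 28.6% called, below the 33.4% of all genes. The 4 were Cbp80, Nelf-A, Nelf-E and sbr, the largest fall being that of Nelf-E at -0.20 (edgeR, adjusted p = 0.000544). Without those 3 libraries 1 was called lower, with a median of -0.0453 against -0.053 with all 10.

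Regulators of Slbp and of S phase gave 1 higher, CycE (0 higher without the 12xWT female libraries), and 1 lower, CycA, of 12. That is 16.7% called, below the 33.4% of all genes. By edgeR, CycA had a log2 fold change of -0.17 (adjusted p = 0.00134) and E2f1 was at -0.0699 (adjusted p = 0.0985). The CycE call was also lost without yw female replicate 1 or 2, yw male replicate 1 or 2, 12xWT female replicate 3 or 12xWT male replicate 1, each left out singly. Beside the uncalled Slbp, 13 of 20 markers of S phase and proliferation were called lower and 1, CycE, higher (70% called). Their median log2 fold change was -0.13. Without the 12xWT female libraries 8 of these markers were called lower and 0 higher, with a median of -0.153. Histone chaperones, which take over histones once they are made, gave 3 higher, among them Asf1 with a log2 fold change of 0.14, and 6 lower, among them Ssrp with a log2 fold change of -0.11, of 14 (64.3% called). Without the 12xWT female libraries 0 of the 14 were called higher and 2 lower, with a median of -0.0895 against -0.0721 with all 10. With single libraries left out 1 to 3 were higher (1 without yw female replicate 1 or 2 or yw male replicate 1) and 3 to 8 lower (3 without yw male replicate 2). Their share was not tested against that of the 9 genes. By sex, 0 genes of the pathway, proliferation and chaperone lists were called.

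**Figure D4:**
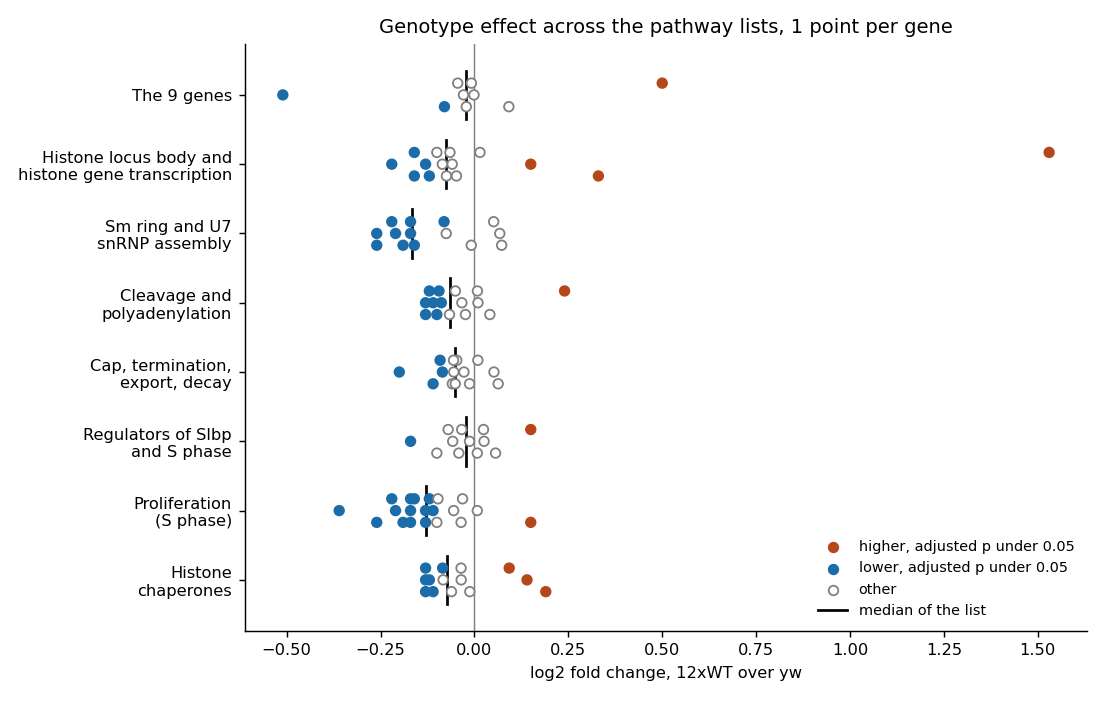
Log2 fold change of 12xWT over yw, 1 point per gene, for the 9 genes and for 7 lists of related genes; filled points have an adjusted p under 0.05 by edgeR and vertical bars mark each list's median. The Sm ring and assembly list lies mostly left of 0, with 9 of 14 called lower, while the 9 genes centre near 0 with Lsm11 and Lsm10 apart.

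The transcripts these proteins act on could hardly be seen. The table names 111 replication-dependent histone genes. Of these, only His2B:CG33868 had any count, with 27 counts over the 4 yw libraries and 1 over the 6 of 12xWT; the other 110 were at 0 in all 10 libraries. All but 2 of the 111 share coordinates with other entries of the table, and per the file headers featureCounts was given no option to count reads that fall on several genes or align to several places. The copies are nearly identical, and mature histone mRNAs lack a polyA tail. Which of these left the counts at 0 was not tested, and they are not read here as levels of histone mRNA. The authors' deposited table of yw over 12xWT, where 34% of genes have an adjusted p under 0.05, lists Lsm11 at -0.50 (adjusted p = 2.57e-06), Lsm10 at 0.51 (adjusted p = 0.0152) and Cpsf73 at 0.0787 (adjusted p = 0.00604). The other 6 genes have adjusted p-values of 0.248 to 0.995 in that table, which comes from the same libraries.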

How the data were processed

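The 9 genes and the lists were chosen with earlier results of these data known. The deposited counts are whole read pairs per gene, made by the authors with featureCounts 2.0.1 in paired mode without a strand option, per the file headers. STAR 2.7.7a, SAMtools 1.9, DESeq2 1.34.0 and the build dm6 are named in the submitters' processing notes. The authors' deposited table gives a normalized mean count (a signal value), log2 fold changes, p-values and adjusted p-values, and was used for comparison only. FlyBase identifiers were looked up by symbol, and exon overlaps came from the exon coordinates deposited with the counts. Gene coordinates matched Ensembl release 115 for 9 of 9 genes.

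Counts were tested in edgeR 4.0.16 (R 4.3.3; robust quasi-likelihood, TMM, filterByExpr, Benjamini-Hochberg adjustment at 0.05). The model was genotype plus sex over 10 libraries; effects within a sex or genotype came from group means. The tests were first tried on simulated counts. Standard errors, and 95% intervals from them, were taken from the fold change and its F statistic. CPM uses library totals, RPKM the table's gene lengths. The rule for naming took all 9 genes, list genes past the threshold, up to 6 others, and the 3 genes most like Slbp, mxc and mute. A count of 0 allows up to 0.0375 to 0.0577 CPM, counting error only. Replicate libraries differed beyond counting noise (chi-square per degree of freedom 9.16 to 28.7); nothing says that they came from separate crosses, so p-values measure only the spread between these libraries. Alternatives were RLE (size factor) scaling, library size only, no filter, no robust step, a replicate block, DESeq2 1.42.0, each library left out, and, added after seeing the data, no 12xWT female libraries.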

Additional observations from a re-analysis of the deposited data

How the results depend on the processing

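Lsm11 kept its direction in all 17 alternatives and its call in 16, with log2 fold changes of 0.45 to 0.56. Lsm10 kept its direction in all 17 and its call in 13 (-0.59 to -0.42), and Cpsf73 kept its direction in all 17 and its call in 7 (-0.0952 to -0.0577). Over all comparisons 68 of 1017 values changed sign, none of them larger than 0.20 on the log2 scale and none of them of a gene called in that comparison. Scaling by library size only moved the share of higher genes among those called between genotypes from 50.8% to 61.2%, and moved the median of all genes from 0.00047 to 0.0224; it left 4 neuron, 3 neuroblast and 3 chaperone genes called lower.

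Replicate numbers did not pair the libraries: same-numbered libraries deviated with r = -0.172 to 0.104, over 0.1 for 1 of 13 pairs. Differently numbered libraries deviated with r = -0.318 to 0.417, both ends being pairs of a 12xWT female and a 12xWT male library. Whether libraries were paired under other numbers was not tested. With the replicate block, 1 of the 9 genes was called between genotypes (Lsm11, adjusted p = 0.0145), Lsm10 being at -0.47 (adjusted p = 0.0776) and Cpsf73 at -0.0736 (adjusted p = 0.114), 0 in females and 0 in males; 1527 genes were called between genotypes in males, 92 between sexes and 49 between sexes in yw. DESeq2 called 0 of the 9 genes between genotypes in males, 325 genes between sexes, 177 between sexes in yw, 55 between sexes in 12xWT and 11 for the difference between sexes. No filter gave 3 for that difference. The number of the 9 genes called between genotypes was 0 without the 12xWT female libraries (2139 genes in all), 1 in females only (1406) and 1 in males only (2338). The cause of these differences was not tested.

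Leaving out each library gave 1 to 3 of the 9 genes between genotypes (1 without yw male replicate 2), 0 to 1 in females, 0 to 2 in males and 0 to 1 between sexes. Over all genes it gave 2686 to 3635 between genotypes, 698 to 1482 in females (fewest without yw female replicate 1), 958 to 2406 in males (fewest without yw male replicate 2), 44 to 197 between sexes (fewest without yw male replicate 1), 0 to 96 in yw (fewest without yw female replicate 1), 3 to 9 in 12xWT and 0 to 3 for the difference. Read number limits Lsm10 most, at 37 to 76 counts per library.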
